A study of Mus musculus with 23 samples.

Results

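Astrocytes treated for 6 h with cycloheximide and no thyroid hormone were compared with untreated astrocytes of the same time, in 4 libraries each, 8 of the 23 libraries of the series. The 8 were taken by their titles, as the 6 h controls and the 6 h controls with CHX, and the measure was RNA across 16087 genes. The cells were primary astrocytes, the star-shaped support cells of the brain, from the neocortex of mice at postnatal day 3 on a mixed background of 129/OLa, 129/Sv, BALB/c and C57BL/6. They had been grown for 7 days, were stated to be over 95% astrocytes, and spent 24 h in medium with 0.1% serum stripped of thyroid hormone. CHX, read here as cycloheximide, was given at 8 µg/ml, and the 6 h began 30 min later, when other cultures received 10 nM T3, the active thyroid hormone. The other 6 h groups were T3 alone and CHX with T3, with 4 libraries each. The labels do not tell whether the 4 libraries of a group are separate cultures or animals. The p-values therefore speak only of the spread among libraries, which may be technical.

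Cycloheximide binds the ribosome and stops the elongation of the protein chain, so that new protein is no longer made. Short-lived repressors and decay factors are then lost, and many unstable messengers, above all immediate early and cytokine messengers, are known to accumulate, an effect called superinduction. Some decay routes, among them nonsense-mediated decay, need a translating ribosome, and transcripts they remove can build up when translation stops.

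The 8 libraries held 13843040 to 19647143 gene counts. CPM here means counts relative to the library's total after TMM scaling, so a level is relative to the rest of the library and says nothing of RNA per cell. Alignments that were not unique, which were not counted to genes, made up 37.3 to 42.1% of the lines in controls and 32.2 to 32.9% with CHX. Reads of mitochondrial genes were 2.33 to 2.57% of gene counts in controls and 1.09 to 1.15% with CHX. The 100 most abundant genes took 17.1% ± 0.372 (SD, n = 4) of counts in controls and 12.8% ± 0.110 with CHX. Each of these 3 measures had an exact two-sided permutation p of 0.0286, the smallest that 4 against 4 can give, and 0.0381 after Benjamini-Hochberg adjustment over 16 measures. CHX replicate 4 was the only one of the 8 on lane 6, and stood apart from the other CHX libraries in 17 of the genes named here.

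The astrocyte label was checked against 22 markers, whose summed level was 23500 to 24900 CPM in controls and 16900 to 20200 CPM with CHX. Microglia markers summed to 156 to 194 CPM in controls and 104 to 140 CPM with CHX. For neurons the range was 516 to 561 CPM in controls and 462 to 525 CPM with CHX, and for vascular and meningeal cells 507 to 824 CPM and 336 to 611 CPM. Oligodendrocyte lineage markers summed to 903 to 1020 CPM in controls and 554 to 625 CPM with CHX. Of the markers listed, 11 of 13 for neurons, 9 of 12 for the oligodendrocyte lineage, 11 of 16 for vascular and meningeal cells and all 16 for microglia passed the filter on low counts. Their part in the results was not tested. In such bulk samples, fewer cells of a type and less RNA per cell of that type cannot be told apart.

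With CHX, 5946 genes were higher (37% of the 16087 tested) and 4916 lower (30.6%) at an adjusted p under 0.05, together 67.5% of the genes tested. The shares of 37% and 30.6% are the background for the list counts that follow. At least a 2-fold change was seen for 1883 genes higher (11.7%) and 931 lower (5.79%). Large changes were mostly increases: 371 genes were called at least 4-fold higher and 123 at least 4-fold lower, and 35 against 4 passed 16-fold. Genes near the floor in controls can be seen to rise that far but not to fall that far. The median control level was 6.86 CPM for coding genes at least 2-fold higher and 29.3 CPM for those at least 2-fold lower. With only the 8 libraries compared, 5405 genes were higher and 5428 lower, and at least 2-fold 1521 and 954. With a trend on transcript length and GC content removed, the genes at least 2-fold changed were 1465 higher and 1250 lower. The median change of all genes was 0.06 on the log2 scale, with quartiles of -0.38 and 0.57. Of the median changes of 48 gene lists, 27 moved by over 1.5 times under at least 1 other setting, all 12 of those under 0.15 in size among them. Tested against a change of 2-fold rather than 0, 998 genes were higher and 458 lower. Where none of a list is said to have risen or fallen, edgeR at an unadjusted p under 0.05 and DESeq2 also gave 0, apart from 1 astrocyte marker that was higher at the unadjusted p.

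**Figure D1:**
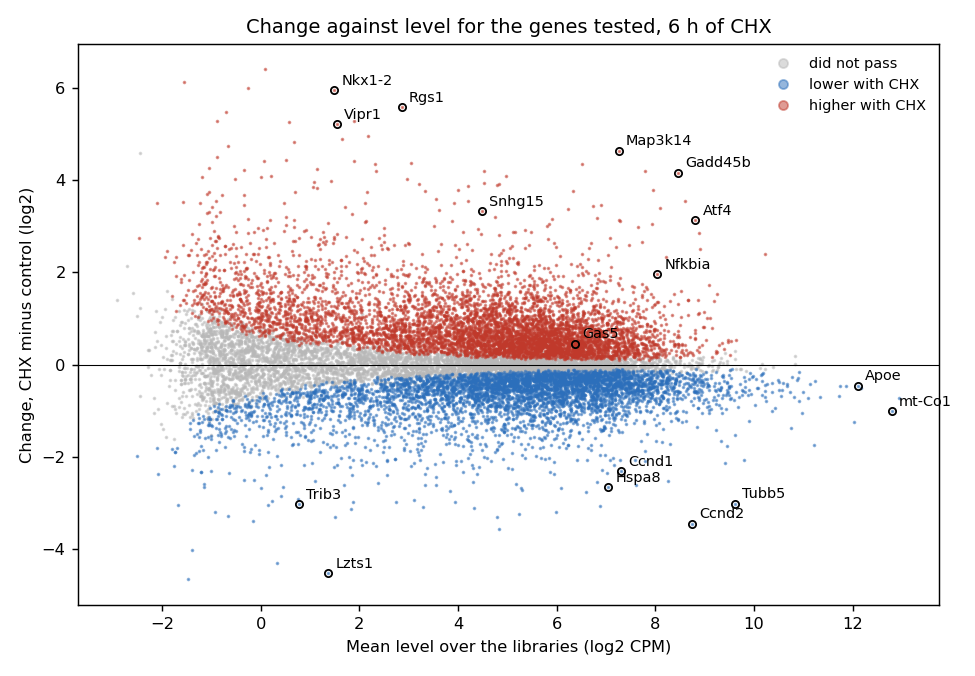
Each point is 1 of 16087 genes, with the mean level over the libraries on the x axis (log2 CPM) and the log2 change of CHX minus control on the y axis. Red genes were higher and blue genes lower at an adjusted p under 0.05, and grey genes did not pass. The highest points, such as Nkx1-2 and Rgs1, have low mean levels, and Map3k14, Gadd45b and Atf4 combine a high level with a large increase.

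Sequences of the members that several of these results turn on are given with each group. The first are AU-rich sites. A nonamer of the letters TTATTTATT in a 3' UTR is a known core of AU-rich elements, which mark short-lived messengers for decay by proteins such as that of Zfp36. Windows around the first nonamer in 7 genes that were at least 2-fold higher are shown, chosen from the named genes because short-lived messengers of this kind are what the treatment is known to raise. They are read 5' to 3' from GENCODE M21 transcripts on GRCm38, with the nonamer in capitals.
Fos, chr12:85477103-85477131, plus strand: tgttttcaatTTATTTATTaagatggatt
Nfkbia, chr12:55489608-55489636, minus strand: ggaccacgttTTATTTATTgtgcttttga
Cxcl1, chr5:90892615-90892643, plus strand: atttatgtatTTATTTATTccacaaagtg
Cxcl2, chr5:90905316-90905344, plus strand: gagagttcacTTATTTATTtatctatgta
Tnf, chr17:35199689-35199717, minus strand: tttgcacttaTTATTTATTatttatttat
Ppp1r15a, chr7:45522957-45522985, minus strand: tagtttcctaTTATTTATTtatttattta
Pim1, chr17:29495689-29495717, plus strand: tttaatgtatTTATTTATTtatttatttg
The 3' UTR of Tnf held 5 such nonamers, counting overlaps, those of Cxcl2 and Ppp1r15a 4 each, and that of Pim1 3. Over all tested genes with a 3' UTR, 11.1% of those with 0 nonamers were at least 2-fold higher. With 1, 2 and 3 or more nonamers the shares were 14.3, 10.5 and 21.9%, the last from 73 genes. They did not rise steadily with the number. Among genes with a 3' UTR in the annotation, 9.22% of the 1572 at least 2-fold higher held the nonamer (95% exact binomial interval 7.84 to 10.8%), against 7.12% of the 800 at least 2-fold lower (5.44 to 9.13%) and 7.26% of all 13896 tested. Genes with the nonamer had a median log2 change of 0.15 and those without it 0.06. The shares of genes that held the nonamer depended on 3' UTR length. Among genes with the longest 3' UTRs, 14.6% of those at least 2-fold higher and 13.8% of all held the nonamer. These shares were 10.6% and 6.19% at middle lengths and 2.72% and 1.75% among the shortest. The plain pentamer ATTTA was in 67.7% of the higher, 70.2% of the lower and 65.4% of all genes.

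Immediate early genes code for transcription factors and regulators that are switched on within minutes of a stimulus without new protein. Of 44 tested, 29 rose, 6 fell and 9 were not called, and 23 were at least 2-fold higher. The median log2 change was 1.15 against 0.06 for all genes. The 2 that were at least 2-fold lower were Ccn2 (log2 -1.77) and Ccn1 (-1.01). Fos, a subunit of AP-1, was at 35.8, 32.9, 40.4 and 43.8 CPM in the controls and at 138, 133, 156 and 198 CPM with CHX. All 4 CHX libraries lay above all controls, and the fold was 4.09 (log2 2.03 ± 0.115 SE, adjusted p = 8.34e-14). Myc, the growth-promoting transcription factor, rose from 29.1 ± 3.33 to 111 ± 28.0 CPM (SD, n = 4), with its highest value, 152 CPM, in replicate 4.

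The zinc finger factors Egr1 and Egr2 rose 5.14-fold and 15.4-fold, and Klf10, a factor induced early by TGF-beta, rose 8.72-fold to 281 CPM. Gadd45b and Gadd45g, stress sensors that act on MAP kinases and the cell cycle, reached 671 ± 73.5 and 827 ± 61.8 CPM from 37.4 ± 1.70 and 113 ± 13.3 CPM. Plk2, a Polo-like kinase, rose 5.28-fold and the nuclear factor gene Csrnp1 rose 4.94-fold. Exons of Csrnp1 overlap those of a gene on the other strand, and the library kit does not mark strand, so reads of such pairs cannot be told apart. Among feedback inhibitors of ERK and other MAP kinases, 9 of 20 rose (45%, against 37% of all genes) and 6 fell (30%, against 30.6%). Their median was 0.22 (0.08 with length and GC removed). Spry1 (1.74, exons overlapped from the other strand), Dusp4 (1.41) and Dusp16 (1.05) rose on the log2 scale, whereas Dusp1, the best known of these phosphatases, fell by 0.75 and its exons are overlapped too.

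The NF-kappaB pathway moved in 1 direction. NF-kappaB factors are held in the cytoplasm by short-lived inhibitor proteins, and many of the inhibitors are themselves NF-kappaB target genes. Of the 23 tested genes, 21 rose, none fell, and the median log2 change was 1.49. Among the inhibitors, Nfkbia was at 106, 92.3, 108 and 122 CPM in controls and 381, 390, 424 and 474 CPM with CHX. Nfkbie rose 11-fold and Tnfaip3, which codes for a ubiquitin-editing brake on the pathway, rose 18.5-fold, from 22.8 ± 2.73 to 421 ± 34.6 CPM. The 2 groups did not overlap for these 3 genes.

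On the activating side, Map3k14, the kinase that starts the non-canonical branch, had 11, 10.3, 14 and 11.5 CPM in the controls. With CHX it had 282, 279, 278 and 334 CPM, a 25-fold rise (log2 4.64 ± 0.0804 SE, adjusted p = 2.25e-23). Relb, a DNA-binding subunit of that branch, rose 5.17-fold, and Birc3, a ubiquitin ligase that acts on the kinase, 18.5-fold. Icam1, an adhesion molecule and a classic NF-kappaB target, rose from 33.4 ± 2.30 to 462 ± 87.9 CPM, with 594 CPM in replicate 4 and 413 to 425 CPM in the others. Its exons are overlapped by a gene on the other strand.

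Promoters of 2 of these genes, Tnfaip3 and Nfkbia, and of the chemokine gene Cxcl1 are shown because κB motifs are the binding sites of the pathway's own factors. Each window runs from 250 bases before to 50 after the start of the gene, 5' to 3' on the strand named, from RefSeq on GRCm38.p6, with matches of the κB motif (searched on both strands by its 10-base consensus) in capitals.
Tnfaip3, chr10:19015361-19015660, minus strand: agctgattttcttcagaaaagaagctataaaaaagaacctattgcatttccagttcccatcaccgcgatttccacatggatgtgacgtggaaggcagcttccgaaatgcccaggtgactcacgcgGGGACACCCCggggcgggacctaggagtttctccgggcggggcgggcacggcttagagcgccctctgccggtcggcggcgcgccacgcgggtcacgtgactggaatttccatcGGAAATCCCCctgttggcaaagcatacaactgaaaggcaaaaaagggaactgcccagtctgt
Cxcl1, chr5:90890995-90891294, plus strand: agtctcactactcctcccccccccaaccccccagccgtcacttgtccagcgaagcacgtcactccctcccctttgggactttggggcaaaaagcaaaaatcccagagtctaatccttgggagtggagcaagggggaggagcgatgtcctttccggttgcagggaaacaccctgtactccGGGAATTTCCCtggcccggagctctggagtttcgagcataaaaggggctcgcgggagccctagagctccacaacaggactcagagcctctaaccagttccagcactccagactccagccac
Nfkbia, chr12:55492598-55492897, minus strand: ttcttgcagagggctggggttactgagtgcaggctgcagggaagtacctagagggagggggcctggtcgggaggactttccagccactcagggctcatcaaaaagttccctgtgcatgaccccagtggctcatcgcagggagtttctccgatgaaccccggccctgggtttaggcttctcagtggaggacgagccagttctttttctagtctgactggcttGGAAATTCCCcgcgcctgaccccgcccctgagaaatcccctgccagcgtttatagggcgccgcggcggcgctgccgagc
Of the 19 NF-kappaB genes with a promoter in the table, 11 held the motif, as did 7 of 17 chemokine and cytokine genes. Of these holders, 9 of the 11 and 5 of the 7 rose, and Tnip3, Cyld, Ccl9 and Cxcl3 were not called (adjusted p of 0.541, 0.743, 0.242 and 0.607). Of all tested NF-kappaB genes, with or without the motif, 91.3% rose. For chemokine and cytokine genes this share was 64%, and for all genes tested 37%. The 2 NF-kappaB genes not called, Tnip3 and Cyld, both held the motif. Whether holders rose more often than other members was not tested. Ccl9 was called lower without CHX replicate 3 (log2 -0.84, adjusted p = 0.0141) and with length and GC removed (adjusted p = 0.046). The motif was in 6.61% of the 11448 promoters of tested genes, in 9.11% of those at least 2-fold higher (7.63 to 10.8%) and in 6.30% of those at least 2-fold lower (4.5 to 8.55%). A match is a match of letters, and the list holds known targets of the pathway. For immediate early genes, the serum response CArG motif was in 2 of 35 promoters, against 1.52% of all.

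Chemokines and cytokines, the secreted signals that draw and instruct immune cells, had 16 of 25 tested genes higher and 2 lower, with a median log2 change of 1.01. Cxcl1, a neutrophil attractant, stood at 9.65, 5.79, 8.38 and 10.0 CPM in controls and at 155, 155, 186 and 197 CPM with CHX, a 20.6-fold rise with no overlap. Its neighbour Cxcl2 rose 17.1-fold, Ccl2, which attracts monocytes, 10.8-fold, and Tnf 11.7-fold to 33.7 ± 5.07 CPM. Ccl20 rose from 0.193 ± 0.0902 to 5.90 ± 1.23 CPM. The largest gain in level was that of Csf1, the growth factor of microglia and macrophages, which went from 378.7 ± 15.4 to 2000 ± 111 CPM. Cx3cl1, a membrane-bound chemokine read by microglia, rose 2.87-fold. The 2 that fell were Tgfb1 (log2 -1.52) and Tgfb3 (-0.41), genes of secreted factors that dampen inflammation. Tgfb2, of the same family and list, rose (0.37).

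Of 26 interferon response genes, 11 rose (42.3%, against 37% of all genes) and 6 fell (23.1%, against 30.6%). Their median of 0.11 was 0.21 without control replicate 1 and 0.05 with upper quartile factors. Irf1, an unstable transcription factor of this response, rose 10.5-fold to 495 ± 35 CPM (exons overlapped from the other strand), Mx2, an antiviral GTPase, rose 8.47-fold, and Usp18, a brake on interferon signalling, rose 2.32-fold. In the JAK-STAT list 10 of 20 rose and 6 fell, with a median of 0.28 (0.10 with length and GC removed). Socs2 and Socs3, inhibitors of cytokine receptors, rose 7.39-fold and 2.18-fold, the kinases Pim1 and Pim3 rose 3.96-fold and 3.60-fold, and the transcription factor Stat2 rose 2.40-fold. Exons of Pim1 and Usp18 are overlapped from the other strand.

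**Figure D2:**
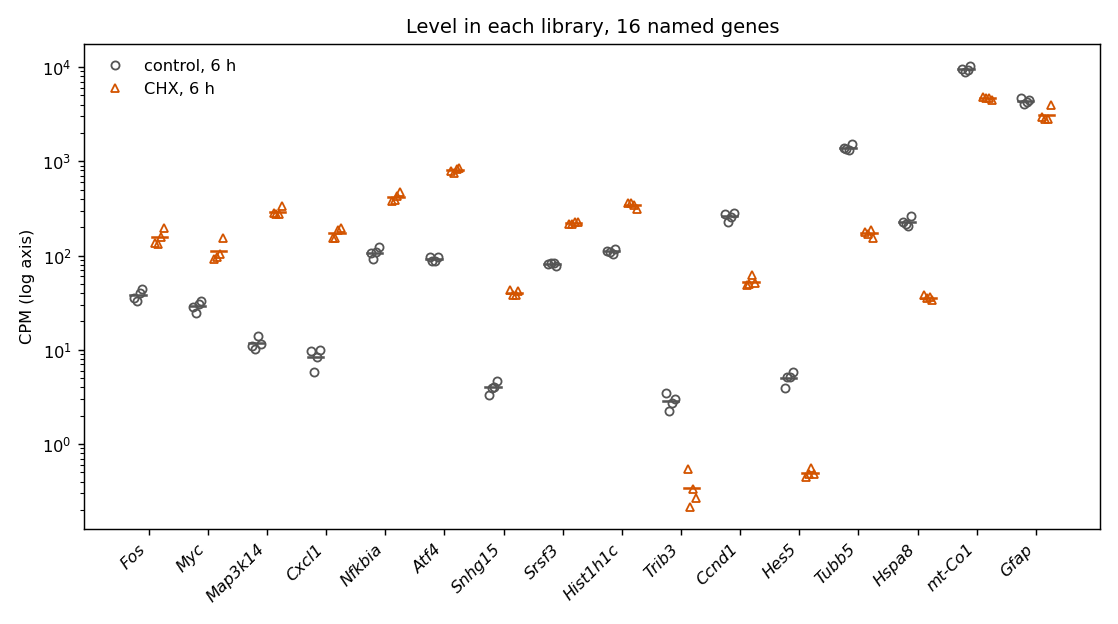
Levels of 16 genes in each of the 8 libraries, in CPM on a log axis, with circles for controls, triangles for CHX and lines for the means of 4 libraries. The groups do not overlap for any of the 16 genes, as for 62.7% of all genes tested, and the triangles of Gfap include 1 that stands above the other 3.

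The largest folds belonged to genes that were nearly silent in the controls, which pass the filter on low counts only through groups in which they are high. Nkx1-2, a homeobox factor of the early embryo, had 0.0747 ± 0.0750 CPM in controls, at most a few reads per library, and 5.33 ± 0.728 CPM with CHX (log2 5.96 ± 0.451 SE). Rgs1, an inhibitor of G protein signalling, rose from 0.287 ± 0.110 to 14.1 ± 2.93 CPM, and Vipr1, a receptor of vasoactive intestinal peptide, from 0.137 ± 0.142 to 5.52 ± 0.800 CPM. Of developmental transcription factors, Lhx4, Gata6 and Foxf1 reached 2.71, 2.90 and 2.54 CPM. Tnfsf18, a ligand of the TNF family, reached 8.58 CPM, Neurl3, a RING finger gene, 6.92 CPM, the adhesion receptor Selp 15.7 CPM, and the cytokine Osm 4.02 CPM. Exons of Nkx1-2, Gata6, Foxf1 and Selp are overlapped by genes on the other strand. The 15 coding genes with the largest rise also included Ccl20, Cxcl1, Map3k14 and Birc3.

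Shares differed by annotated type. They were not matched for level, and the library kit does not mark strand. Where exons overlap, reads of antisense genes therefore cannot be told from those of the gene on the other strand. At least 2-fold higher were 27.2% of 246 lincRNA genes, 22.2% of 333 antisense genes and 24.8% of 202 processed transcripts, against 11.3% of 13918 protein-coding genes. The largest noncoding class, 974 processed pseudogenes, had 3.7% at least 2-fold higher and a median log2 change of -0.19, and of all 1982 tested genes not annotated as coding 13.7% were at least 2-fold higher. Among such genes H2-K2, a class I histocompatibility locus annotated outside the coding set, rose from 0.167 ± 0.177 to 7.01 ± 0.810 CPM. Gm16973 and 2610307P16Rik rose 15.1-fold and 15-fold, and exons of Gm16973 overlap those of a coding gene. Near-identical genes make H2-K2 uncertain, since reads of more than 1 place were not counted.

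**Figure D3:**
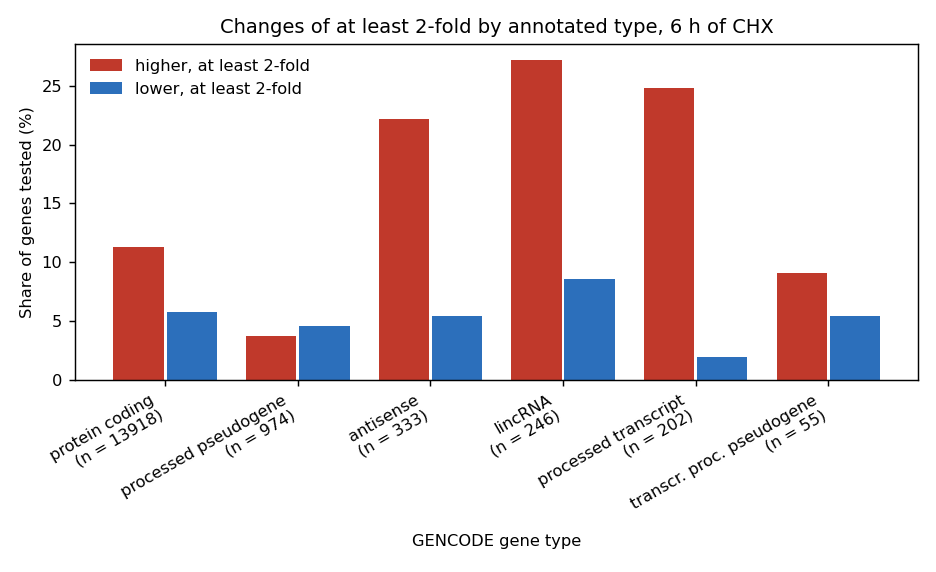
Bars give the share of tested genes (%) that were at least 2-fold higher (red) or lower (blue) with CHX, by GENCODE type, with the number of genes tested under each name. The red bar is at 27.2% for lincRNA genes, 11.3% for coding genes and 3.7% for processed pseudogenes. The libraries do not mark strand, so reads of antisense genes can come from the gene on the other strand.

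Host genes of small nucleolar RNAs carry guide RNAs of ribosome maturation in their introns, and their spliced RNA, which holds no long reading frame, is a known substrate of nonsense-mediated decay. Of 11 tested, 7 rose (63.6%, against 37% of all genes) and 3 fell (27.3%, against 30.6%). Their median was 0.46 (0.21 with length and GC removed). Snhg15 was at 3.34, 3.94, 4.07 and 4.70 CPM in controls and at 42.7, 38.6, 38.1 and 42.0 CPM with CHX, a 10.1-fold rise with no overlap. Snhg17 rose 5.39-fold, Snhg12 4.62-fold and Snhg5 3.14-fold. Gas5, the most studied host gene, rose by less, from 69.98 ± 9.89 to 95.9 ± 10.5 CPM (log2 0.46 ± 0.106 SE, adjusted p = 0.000502), and did not pass after a trend on length and GC content was removed (adjusted p = 0.0923).

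Of 21 factors of nonsense-mediated decay, 14 rose and 1 fell, with a median of 0.43 (0.21 with length and GC removed). Upf3b and Upf2, core factors, rose 2.32-fold and 2.14-fold, Casc3, of the exon junction complex, rose 2.05-fold, and Smg5, which recruits decay enzymes, 1.92-fold. Exons of Casc3 are overlapped from the other strand. Other mRNA decay genes went both ways, with 18 of 33 higher (54.5%, against 37% of all genes) and 12 lower (36.4%, against 30.6%). Their median was 0.23 (0.08 with length and GC removed). Zfp36, which binds AU-rich sites and speeds decay, rose 2.73-fold, Elavl1, which binds such sites and stabilises, 1.5-fold, and Exosc10, a nuclear exosome enzyme, 2.24-fold, whereas Cnot6, a deadenylase subunit, fell by 1.17 on the log2 scale. Exons of Zfp36 and Elavl1 are overlapped.

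SR proteins and relatives steer splicing, and many of their genes make an alternative transcript with a poison exon that is removed by nonsense-mediated decay. Of 31 tested, 25 rose and 3 fell, with a median of 0.76, and 28 of the 31 have an annotated decay transcript. Srsf3 was at 81.5, 83.7, 84.3 and 76.6 CPM in controls and at 215, 215, 225 and 226 CPM with CHX. These groups did not overlap, and the fold was 2.70. Tra2a and Tra2b rose 3.18-fold and 2.44-fold, Srsf6 and Srsf10 2.23-fold each, and Ptbp2, the neuronal relative of Ptbp1, 2.21-fold. Counts per gene do not show which transcript the reads came from. Over all coding genes, an annotated decay transcript was found for 28.7% of those at least 2-fold higher (26.5 to 31.0%), 19.5% of those at least 2-fold lower (16.8 to 22.4%) and 27.6% of all.

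Replication-dependent histone genes, whose messengers end in a stem-loop and are tied to DNA synthesis, had 12 of 14 tested members higher and none lower, with a median of 1.63 (0.95 with no filter on low counts, which tests more members). Hist1h1c, a linker histone, was at 112, 109, 103 and 117 CPM in controls and 358, 365, 340 and 310 CPM with CHX. Hist1h2bc rose 3.07-fold and Hist1h1d 6.09-fold, and Hist1h1b rose 20.5-fold from 0.475 ± 0.398 CPM. Of 33 listed genes only 14 passed the filter on low counts, so these counts describe the detected members. Near-identical copies make single histone genes uncertain. Of 8 replication-independent histone genes, 2 rose and 5 fell, among them H3f3b (0.82) and H3f3a (-1.05), which code for the same protein, and exons of H3f3a are overlapped.

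Clock genes rose as well, among them several repressors. Of 21 tested, 15 rose and 4 fell, with a median of 0.68. Nr1d1, the heme-binding repressor of the clock, was at 56.2, 60.1, 63.0 and 63.2 CPM in controls and at 734, 734, 710 and 662 CPM with CHX, an 11.7-fold rise. Its exons overlap those of Thra, the thyroid hormone receptor gene on the other strand, which fell by 0.72 on the log2 scale. The other repressors did not share that overlap. Ciart rose 8.08-fold, Per1 4.32-fold, Nfil3 2.91-fold and Bhlhe41 2.62-fold, of which Bhlhe41 is overlapped by another gene. Hlf, an activator that binds the same sites as Nfil3, rose 5.94-fold.

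**Figure D4:**
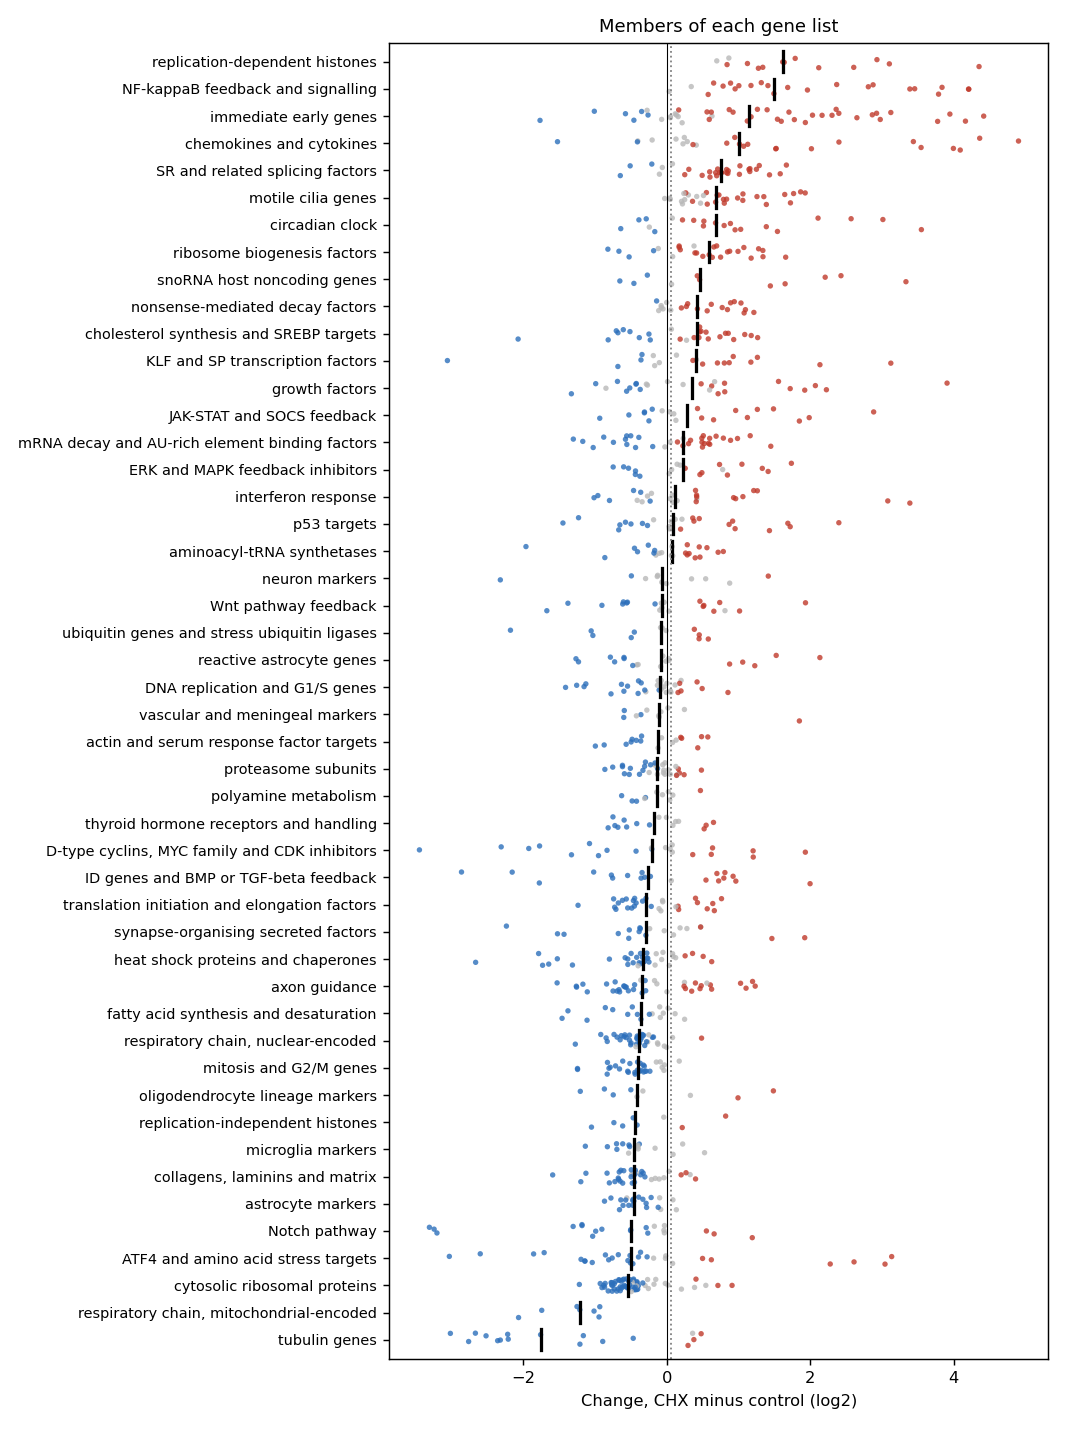
Each point is 1 tested member of a gene list, with its log2 change of CHX minus control on the x axis, red if higher, blue if lower and grey if it did not pass. Black bars are list medians and the dotted line is the median of all genes, 0.06. Medians run from 1.63 for replication-dependent histones to -1.76 for tubulin genes.

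Stress genes split. The factor of Atf4 is the effector of the integrated stress response and switches on amino acid transport and synthesis. Atf4 was at 96.5, 86.7, 87.5 and 95.7 CPM in controls and at 784, 760, 826 and 851 CPM with CHX, an 8.79-fold rise. Of the 29 genes of the Atf4 list, 6 rose and 19 fell, with a median of -0.51. Beside Atf4, those that rose included Ddit3, a death-promoting factor (8.24-fold), Ppp1r15a, which restores translation (4.85-fold), and Stc2, a secreted glycoprotein (6.11-fold). Exons of Ddit3 and Ppp1r15a are overlapped by other genes. The pseudokinase Trib3, which inhibits the factor of Atf4, was at 3.53, 2.27, 2.73 and 3.03 CPM in controls and at 0.546, 0.215, 0.338 and 0.270 CPM with CHX, 8.19-fold lower. Slc7a5, a carrier of large amino acids, was 2.29-fold lower and Slc6a9, a glycine carrier with overlapped exons, 3.63-fold lower.

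Txnip, an inhibitor of thioredoxin and glucose uptake, rose 5.71-fold to 817 ± 58.0 CPM, Brd2, a reader of acetylated histones, rose 2.90-fold to 903 ± 30.5 CPM, and both are overlapped by another gene. Lats2 and Amotl2, which restrain YAP, rose 3.34-fold and 2.61-fold to 839 and 841 CPM. Of 23 aminoacyl-tRNA synthetase genes, 10 rose (43.5%, against 37% of all genes) and 7 fell (30.4%, against 30.6%), with a median of 0.07. Dars rose 1.64-fold and Qars fell by 0.86 on the log2 scale, and the scaffold gene Aimp1 fell by 1.96, its exons overlapped. Of 26 p53 targets, 11 rose (42.3%) and 8 fell (30.8%), near the shares of all genes, with a median of 0.09. Gadd45a (3.22-fold, overlapped) and the death receptor Fas (1.89-fold) rose, and Sesn1 and Zmat3 fell by 1.45 and 1.23 on the log2 scale.

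Tubulin genes fell as a family with a few exceptions. Alpha- and beta-tubulin form microtubules, and their messengers are known to be destroyed on the translating ribosome when free tubulin is in excess, a control that reads the first residues of the new chain through the factor of Ttc5. The first 30 coding bases of 8 family members are shown because that signal lies there. They are read 5' to 3' from GENCODE M21 transcripts on GRCm38, with the first 4 codons in capitals.
Tubb5: ATGAGGGAAATCgtgcacatccaggccgga
Tubb2b: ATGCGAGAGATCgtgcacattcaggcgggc
Tubb4b: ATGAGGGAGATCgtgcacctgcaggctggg
Tuba1b: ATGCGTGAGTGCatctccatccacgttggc
Tuba4a: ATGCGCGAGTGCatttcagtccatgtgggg
Tubg1: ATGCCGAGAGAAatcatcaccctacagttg
Tubd1: ATGTCGATAGTGacagtacagctggggcag
Tube1: ATGACCCAGTCGgtggtcgtacaggtcgga
The coding start lies at chr17 position 35838053 (minus strand) for Tubb5, chr13 position 34130233 (minus strand) for Tubb2b and chr15 position 98934335 (minus strand) for Tuba1b. Over these 12 bases, Tubb4b differs from Tubb5 at 1, Tubb2b at 3 and Tuba1b and Tuba4a at 5, whereas the gamma, delta and epsilon genes Tubg1, Tubd1 and Tube1 differ at 7, 6 and 7. Of members not shown, Tubb4a differs at 1 (log2 change -0.89), Tuba8 at 2 (-2.67) and Tubg2 at 9 (0.36, not called). Tuba1b and Tuba4a, both at 5, changed by -1.16 and -2.22. These are counts of bases and not of residues, and their relation to the changes was not tested.

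The list of 17 genes tested also holds Ttc5, which is not a tubulin. Of the 17, 13 fell, 11 of them at least 2-fold, and 3 rose, Ttc5 among them, with a median log2 change of -1.76. Tubb5 was at 1393, 1335, 1314 and 1526 CPM in controls and at 178, 168, 188 and 152 CPM with CHX, 8.11-fold lower (log2 -3.02 ± 0.0782 SE, adjusted p = 3.87e-20). No CHX library came near a control. Tubb4b was 6.80-fold lower (exons overlapped), Tubb2b 5.74-fold lower, Tubb2a 5.13-fold lower, and Tuba4a (overlapped) and Tuba1c 4.66-fold and 4.63-fold lower. Tuba1b fell from 78.2 ± 7.71 to 34.9 ± 2.58 CPM.

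Tubg1, which nucleates microtubules rather than building them, fell by 0.47 on the log2 scale. Tubd1 and Tube1, centriole genes, rose by 0.30 and 0.38 with adjusted p of 0.0197 and 0.0348, and Ttc5 rose by 0.48. The 2 small rises did not pass under several other settings, with adjusted p up to 0.509 for Tubd1 and 0.450 for Tube1. The summed level of the list, Ttc5 included, was 2960 to 3510 CPM in controls and 704 to 778 CPM with CHX. The exact permutation p was 0.0286, the smallest possible. The copy Tubb4b-ps1 was 6.66-fold lower, and reads shared between such copies had not been counted. In the actin and serum response factor list, 8 of 17 fell (47.1%, against 30.6% of all genes) and 5 rose (29.4%, against 37%). Their median of -0.12 turned to 0.02 without CHX replicate 4. Actb went from 1751 ± 204 to 877.5 ± 29.4 CPM, and Lima1, an actin-bundling gene, rose 1.35-fold.

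Several of the largest falls were in Notch signalling, by which neighbouring cells restrain one another's fate. Of 20 genes, 13 fell and 3 rose, with a median of -0.51, and 7 were at least 2-fold lower. Nrarp, a feedback inhibitor and Notch target, was at 68.7, 65.4, 69.6 and 69.2 CPM in controls and at 7.00, 8.24, 6.76 and 6.75 CPM with CHX, 9.49-fold lower. Lfng, which modifies the receptor's sugars, was 9.23-fold lower and the target Hes5 9.93-fold lower, from 4.98 ± 0.778 to 0.495 ± 0.0489 CPM. Hes1 was 1.87-fold lower, and the ligand genes Dll1 and Dll3 2.47-fold and 2.27-fold lower. Exons of Nrarp, Hes5 and Dll1 are overlapped from the other strand.

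Among D-type cyclins, the MYC family and CDK inhibitors, 10 of 21 fell and 6 rose, with a median of -0.21 (-0.13 without CHX replicate 4). Ccnd1, which drives entry into the cell cycle, was at 275, 230, 259 and 284 CPM in controls and at 48.7, 50.2, 61.7 and 50.7 CPM with CHX, 4.96-fold lower. Ccnd2 was 10.9-fold lower, from 788 ± 44.6 to 72.0 ± 3.20 CPM, whereas Ccnd3 was not called (log2 0.08). Mycn fell by 1.93 on the log2 scale, the same size as the rise of its relative Myc, and Mxd4, an opponent of MYC, fell by 1.33. Exons of Ccnd1, Ccnd2 and Mxd4 are overlapped.

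Genes of mitosis fell too. Of 31 tested, 25 fell and none rose, with a median of -0.41. Plk1 and Ccna2, which drive mitosis, were 2.37-fold lower each (both overlapped), and Bub1b, a checkpoint gene, and Foxm1, the transcription factor of this program, 1.78-fold and 1.77-fold lower. CHX replicate 4 had the lowest values for Ccna2, Plk1, Bub1b and Foxm1, and Ccnf, a cyclin of late cell cycle, was 8.70-fold lower. Of 32 genes of DNA replication and entry into it, 13 fell (40.6%), 6 rose (18.8%) and 13 were not called. Of all genes 30.6% fell and 37% rose, and the median of the list was -0.10 (-0.01 with no scaling factors). Rfc3, E2f8 and Ccne2 were 2.39-fold, 2.23-fold and 2.19-fold lower (the last 2 overlapped), and Mcm10, which acts at replication origins, rose 1.81-fold.

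The largest fall among coding genes was that of Lzts1, a leucine zipper gene, from 4.78 ± 0.628 to 0.201 ± 0.0824 CPM, 23.1-fold. Hspa2, an HSP70 relative, was 11.9-fold lower, Mgat5, a glycan-branching enzyme of the Golgi, 9.94-fold (overlapped by Tmem163), Klf13 8.34-fold, the hyaluronan receptor Layn 7.96-fold and Eomes, a T-box factor, 7.94-fold (overlapped). In the KLF and SP family, 10 of 19 genes rose and 4 fell, with a median of 0.41 (0.26 with length and GC removed). Klf5 and Klf6, early response members, rose 4.39-fold and 2.40-fold. Klf9, a known thyroid hormone target, fell from 22.9 ± 1.92 to 14.3 ± 0.558 CPM.

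Inhibitors and targets of BMP and TGF-beta went both ways, with 8 of 20 higher and 11 lower and a median of -0.27. Bambi, a decoy receptor, rose 4-fold and Tgif1, a repressor, 1.75-fold, whereas Id1 and Id2, direct BMP targets, were 3.43-fold and 2.03-fold lower. Among growth factors, 11 of 26 rose (42.3%, against 37% of all genes) and 8 fell (30.8%, against 30.6%). Their median was 0.35, which was 0.54 without control replicate 1 and 0.23 with length and GC removed. Bmp4 rose from 3.44 ± 0.572 to 52.0 ± 6.37 CPM (15-fold, overlapped), Bmp2 4.21-fold, Bdnf, a neurotrophin, 3.79-fold (overlapped), and Igf1 2.94-fold, whereas Pdgfa, a mitogen of oligodendrocyte precursors, was 2.52-fold lower (overlapped). In the Wnt list 7 of 21 rose (33.3%) and 8 fell (38.1%), with a median of -0.07. Of the Frizzled receptors, Fzd1 rose 3.82-fold, and Fzd9 and Fzd2 were 3.19-fold and 2.60-fold lower.

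Most ribosomal protein messengers fell, and most of those of ribosome assembly rose. Of 63 cytosolic ribosomal protein genes, 47 fell and 3 rose, with a median of -0.54. Rplp0 fell from 407 ± 34.1 to 245 ± 5.43 CPM and Rpl15 by 0.87 on the log2 scale, whereas Rpl10a rose by 0.91, the last 2 overlapped. These genes have many processed copies, and reads that aligned to more than 1 place were left uncounted. Of 29 translation factors, 16 fell and 8 rose, with a median of -0.29 (-0.44 with length and GC removed). Eef2, which moves the ribosome along, fell from 2739 ± 74.2 to 1654 ± 29.5 CPM and Pabpc1, which binds poly(A) tails, was 2.36-fold lower, whereas the cap-binding Eif4e rose 1.70-fold and the helicase Eif4a2 1.58-fold (overlapped).

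Of 27 ribosome biogenesis genes, 20 rose and 4 fell, with a median of 0.59. Nop58, a core protein of box C/D particles, rose 3.15-fold, Wdr43 2.53-fold (overlapped) and Rrp12 2.43-fold, whereas Ubtf, a factor of RNA polymerase I, was 1.77-fold lower. In polyamine metabolism 1 of 11 rose, Srm (1.38-fold), and 4 fell (36.4%, against 30.6% of all genes). Oaz1 was 1.55-fold lower, and the median was -0.14 (-0.40 with length and GC removed). Odc1, a gene with a short-lived enzyme, had 88.7 ± 9.70 CPM in controls and 85.0 ± 6.15 CPM with CHX (adjusted p = 0.490).

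Energy genes fell broadly. The 7 mitochondrial-encoded respiratory genes tested, of 13 listed, all fell, with a median of -1.21. The others did not pass the filter on low counts, so these values describe the members that were counted. Alignments that were not unique, on average 39.4% of lines in controls and 32.6% with CHX, were left uncounted. Their part in these genes was not tested. mt-Nd2, a complex I subunit, was at 1408, 1361, 1487 and 1463 CPM in controls and at 354, 336, 361 and 312 CPM with CHX, 4.19-fold lower. mt-Nd1 was 3.35-fold lower, mt-Cytb 2.38-fold and mt-Nd4 2.32-fold. mt-Co1, whose exons are overlapped by a tRNA gene, fell from 9441 ± 604 to 4670 ± 116 CPM. The mitochondrial tRNA gene mt-Tl1 was 8.47-fold lower. Cycloheximide acts on cytosolic and not on mitochondrial ribosomes. Of 42 nuclear-encoded respiratory genes, 33 fell and 1, Ndufs1, rose (1.4-fold, overlapped), with a median of -0.39. Ndufb9 was 2.42-fold lower, and Atp5b fell by 0.59 on the log2 scale.

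Most chaperone genes fell. Of 36 heat shock proteins and chaperones, 23 fell and 4 rose, with a median of -0.34. Hspa8, the constitutive HSP70, was at 224, 218, 204 and 266 CPM in controls and at 38.5, 35.1, 36.4 and 33.5 CPM with CHX, 6.35-fold lower with no overlap. Its cochaperones Dnajb1 and Bag3 were 3.32-fold and 2.49-fold lower, Hsp90ab1 1.74-fold, and Xbp1, the factor of the unfolded protein response, 3.13-fold. Of 12 ubiquitin genes and ligases, 5 fell (41.7%, against 30.6% of all genes) and 4 rose (33.3%, against 37%). Their median was -0.08, and 0.01 with no scaling factors. The polyubiquitin gene Ubb, which refills the ubiquitin pool, was 2.04-fold lower and Fbxo32 2.08-fold lower (overlapped). Of 31 proteasome genes, 14 fell (45.2%), 5 rose (16.1%) and 12 were not called. Their median was -0.13, from Psmd4 at 1.82-fold lower to Psmd12 at 1.4-fold higher.

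Cholesterol genes went both ways, with 15 of 26 higher and 9 lower and a median of 0.41 (0.22 with length and GC removed). Stard4, a sterol carrier, rose 2.41-fold, and the enzymes Hsd17b7 and Msmo1 2.26-fold and 2.12-fold. Sqle, squalene epoxidase, was at 216, 203, 221 and 234 CPM in controls and at 50.7, 47.5, 56.3 and 52.7 CPM with CHX, 4.21-fold lower, while these 3 rose. Of 17 fatty acid genes, 10 fell and none rose, with a median of -0.36. The desaturases Scd2 and Scd1 were 2.60-fold and 2.16-fold lower, Thrsp, a lipogenic regulator, 2.75-fold, and the elongase Elovl5 1.69-fold.

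Astrocyte markers fell together by modest amounts, 17 of 22 lower and none higher, with a median of -0.46. Gfap, the intermediate filament of astrocytes, was at 4646, 4064, 4241 and 4478 CPM in controls and at 2975, 2804, 2843 and 3915 CPM with CHX, 1.39-fold lower (adjusted p = 0.000197). The groups did not overlap, and replicate 4 stood above the other CHX libraries. Glul, glutamine synthetase, was 1.83-fold lower (overlapped), Fgfr3 1.72-fold (overlapped) and Atp1b2 1.58-fold. Apoe fell from 5078 ± 217 to 3691 ± 535 CPM, Vim from 9833 ± 697 to 5936 ± 189 CPM, Sparc 1.60-fold, Psap 1.63-fold and Igfbp5 2.07-fold. Of 19 reactive astrocyte genes, 5 rose (26.3%, against 37% of all genes) and 7 fell (36.8%, against 30.6%), with a median of -0.09. Cxcl10 rose 2.88-fold (overlapped), and S100a10 and Emp1 were 2.41-fold and 2.35-fold lower.

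Markers of other cells were counted as well, where 37% of all genes rose and 30.6% fell. Of 16 microglia markers 8 fell and none rose, with a median of -0.46. Cx3cr1, the receptor of the chemokine made by Cx3cl1, was 2.20-fold lower (overlapped) and Ctss 1.78-fold. Of 9 oligodendrocyte markers 2 rose and 4 fell, with a median of -0.42 (-0.68 without CHX replicate 4). Olig2 and Olig1 were 2.31-fold and 1.83-fold lower (Olig1 overlapped). Of 11 neuron markers 1 rose, Gad1 (2.67-fold, with 24.0 CPM in replicate 4 and 10.5 to 11.8 CPM in the others), and 2 fell, the larger being Tubb3, a tubulin, at 5.00-fold lower, with a median of -0.07. Of 11 vascular and meningeal markers 1 rose, Kdr (3.60-fold), and 3 fell, with a median of -0.11. Col1a2 was among those that fell (1.52-fold lower), with overlapping groups. The shares that fell, 18.2% of neuron and 27.3% of vascular and meningeal markers, lay below that of all genes.

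Outside the cell, 24 of 35 matrix genes fell and 3 rose, with a median of -0.46. Col8a1 was 3.02-fold lower, Col4a2 2.30-fold (overlapped) and the crosslinking enzyme Loxl1 1.78-fold. Of 39 axon guidance genes, 21 fell and 12 rose, with a median of -0.34. The semaphorin Sema4d and the plexin receptor Plxna1 (overlapped) were 2.89-fold and 2.39-fold lower, while Epha4 and Sema3c rose 2.15-fold and 2.04-fold. Of 19 synapse-organising factors, 10 fell and 3 rose, with a median of -0.29 (-0.48 with length and GC removed). Nlgn3 and Nlgn2, neuroligins, were 4.72-fold and 2.70-fold lower. Of 32 motile cilia genes, 21 rose and none fell, with a median of 0.69, which was 0.42 without CHX replicate 4 and 0.45 with length and GC removed. Dnah7b rose 3.41-fold, and Cfap44 rose 3.13-fold and Ccdc40 1.73-fold, each with its highest value in replicate 4.

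In thyroid hormone handling, 8 of 16 genes fell (50%, against 30.6% of all genes) and 3 rose (18.8%, against 37%). Their median was -0.18. It was -0.29 without CHX replicate 3 or without CHX replicate 4 and -0.32 with length and GC removed. Hr, a corepressor gene that thyroid hormone switches on, rose from 10.8 ± 1.32 to 15.7 ± 1.16 CPM without T3 present. Dio2, which makes T3, was 1.51-fold lower (overlapped), and Dio3, which destroys it, was at 0 to 0.432 CPM in the 8 libraries, with an adjusted p of 0.847.

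The same treatment in the presence of T3 used 8 other libraries and gave a check on the size and direction of single genes. Of the 1883 genes at least 2-fold higher with CHX alone, 1686 were also called higher with CHX in T3-treated cells and none was called lower, where 36.3% of all genes were called higher. Of the 931 at least 2-fold lower, 849 were called lower there and none higher, where 31% of all were called lower. In that comparison all CHX libraries were on lane 6 and all others on lane 5, so lane and treatment cannot be told apart there. The medians with T3 were 1.28 for the higher and -1.20 for the lower set, against 1.41 and -1.31 without. At an unadjusted p under 0.05 in edgeR, 2 of the 1883 and 0 of the 931 had the opposite sign with T3, and DESeq2 called 0 of either. For Map3k14 the log2 change was 4.44 with T3, for Atf4 3.07, for Nr1d1 3.64, for Tubb5 -2.67, for Hspa8 -2.59 and for Trib3 -3.38.

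A test of the difference between the 2 CHX effects passed for 196 genes (1.22%), 94 of them more positive and 102 more negative in the presence of T3. Hr had the opposite sign in the 2, 0.55 without T3 and -0.86 with it (difference -1.41, adjusted p = 1.4e-08). Nrarp fell by 3.25 without T3 and by 1.84 with it (adjusted p of the difference 9.7e-10), Klf13 by 3.06 and 2.18, and Lfng by 3.21 and 2.60. Mitosis genes had a median of -0.41 without T3 and 0.11 with T3, and motile cilia genes 0.69 and -0.08, as list medians with no test of their difference.

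**Figure D5:**
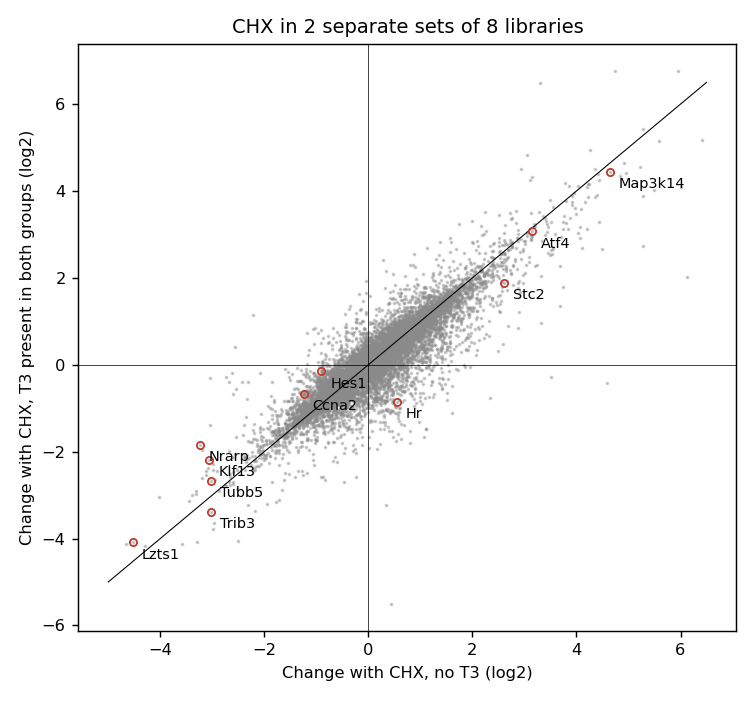
Each point is 1 of 16087 genes, with the log2 change with CHX in the absence of T3 on the x axis and in its presence on the y axis, from 2 sets of 8 libraries that share none. The line marks equal change, Map3k14, Atf4 and Tubb5 lie close to it, and Hr, with 0.55 and -0.86, and Nrarp, with -3.25 and -1.84, lie off it.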

How the data were processed

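Per the labels' protocols, libraries came from 200 ng of RNA by a kit without strand marks and were read as single 50-nt reads. Per the submitters' processing notes, bcl2fastq, FastQC, Bowtie, TopHat, HTSeq and edgeR were used with GRCm38. The sources used here do not give versions, counting mode or strand setting. The authors deposited raw read counts per gene, with closing lines for reads not counted, which were left out of totals and fits. Those without a feature were 4.17 to 5.30% of all lines and ambiguous reads 1.40 to 1.70%.

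Genes were kept by filterByExpr with a minimum count of 10, scaled by TMM and fitted in edgeR 4.0.16 (R 4.3.3) with 1 mean per group over all 23 libraries, which share 1 estimate of spread (17 residual degrees of freedom). Changes were tested with the quasi-likelihood F test and a gene was called when its p, adjusted by Benjamini-Hochberg, was under 0.05. A change of at least 2-fold means such a call with a log2 change of 1 or more in size. Standard errors (SE) are the size of the change over the square root of F. On simulated counts, 91.0% of 67 genes changed 1.5-fold, 97.0% of 67 changed 2-fold and 100% of 66 changed 4-fold were recovered, with 6 false calls among 16087 genes. The simulation changed only these genes, taken from the better covered ones. It drew all genes with 1 common spread and all groups from the control means. In the real comparison 67.5% of genes were called, so these rates check the fit and do not give its error there. Summed levels were compared by exact permutation.

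Symbols, gene types and 3' UTRs came from GENCODE M21, which held 36429 of 38293 identifiers and 1151 of 1165 listed symbols, of which 1097 were tested. Promoters came from RefSeq. "Overlapped" marks genes with exons shared with a gene on the other strand. The rule for named genes took, per direction, 15 coding and 8 other genes by fold and 10 by CPM difference, up to 6 per list by adjusted p, and 10 well-known genes. Of those it takes, the text prints a part, and some counted list members are not reported here by name. Tuba1b, Tubg1, Tubd1, Tube1, Ttc5, Tgfb3, Tnip3, Cyld, Ccl9 and Cxcl3 were chosen after their values were seen. So were Tgfb2, Ccnd3, Tubb4a, Tuba8, Tubg2, Ccn1 and Ccn2. The members and lists were chosen with earlier results of these data known. The labels do not say whether replicate numbers pair the libraries, and the main fit did not pair them. Alternatives covered DESeq2 1.42.0, other scaling, filters, subsets of libraries, lane, length and GC, the block and each library left out.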

Additional observations from a re-analysis of the deposited data

Results flagged for a closer look

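In 37 of 466 groups of 4 libraries, 1 library lay far from the other 3 by Dixon's 95% criterion, which chance alone meets in about 5% of groups. Of these, 17 were CHX replicate 4, the only one of the 8 on lane 6. It was higher than the other 3 CHX libraries for Map3k14 (334 CPM), Gadd45b (781), Brd2 (948), Amotl2 (925), Icam1 (594), Exosc10 (155), Fas (148), Ttc5 (48.9), Selp (22.7) and Lzts1 (0.324). It was also higher for Gfap (3910 CPM), Cfap44 (53.6), Gad1 (24.0), and the tubulins Tubb2a (50.1) and Tubb3 (8.47). It was lower for the mitosis gene Bub1b (38 CPM) and the amino acid carrier Slc7a5 (75.4). The direction and the call of these 17 genes were the same without that library.

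CHX replicate 2 was high for Lhx4 (3.50 CPM), Nrarp (8.24) and Layn (3.88). CHX replicate 3 was high for Dusp16 (183 CPM) and Ccnd1 (61.7) and low for 2610307P16Rik (15.8). Control replicate 3 was high for the matrix gene Col1a2 (322 CPM), the chemokines Cxcl10 (185) and Cxcl3 (1.05), Sema3c (148), Dusp16 (86.1) and Vipr1 (0.349), and low for Ccl20 (0.0582). Control replicate 4 was high for Ptbp2 (111 CPM), the BMP genes Bambi (44.9) and Id1 (41.9), and low for Ubtf (161), Cyld (72.1) and Upf2 (45.8). Control replicate 2 was high for Eomes (14.9 CPM).

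For 21 named genes the CHX effect differed with T3 present. The values are log2 changes with T3 minus those without, each with an adjusted p from edgeR. Notch genes fell less with T3, by 1.4 for Nrarp (adjusted p = 9.7e-10), 0.75 for Hes1 (0.0051) and 0.60 for Lfng (0.0068). Among growth and cell cycle genes, differences were 0.61 for Mycn (0.010), 0.59 for Ccnf (0.030), 0.57 for Ccna2 (0.016) and Plk1 (0.038), 0.55 for Foxm1 (0.029), 0.54 for Ccnd1 (0.030) and 0.53 for Bub1b (0.033). Klf13 differed by 0.88 (0.00046), the growth factor receptor Fgfr3 by 0.38 (0.029), and the mitochondrial mt-Nd1 and mt-Nd2 by 0.37 each (0.038 and 0.031). Lower values with T3 were seen for Hr (-1.41, 1.4e-08), Layn (-0.78, 0.050), Stc2 (-0.73, 0.021), Ccdc40 (-0.72, 0.038), Rrp12 (-0.45, 0.017), Pim3 (-0.41, 0.047) and Atp1b2 (-0.37, 0.047). In the libraries with T3, lane and CHX cannot be told apart.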

How the results depend on the processing

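Leaving out each of the 8 libraries in turn gave 10426 to 10573 called genes, 5704 to 5818 higher and 4676 to 4788 lower, and at least 2-fold 1805 to 1927 higher and 913 to 950 lower. A test against a 2-fold change (glmTreat) left 998 higher and 458 lower. With the replicate number as a block, 10932 genes were called, 5982 higher and 4950 lower. The labels do not say whether the numbers pair the libraries. Deviations of same-numbered libraries correlated at 0.01 to 0.08 and those of other pairs at -0.08 to 0.05. Of the controls, 3 of 4 correlated best with their own number, so a weak pairing is not settled. The genes whose CHX effect differed with T3 were 521 with DESeq2 and 497 with the 16 libraries of 6 h alone, against 196, and the cause was not tested. The median change of all genes was 0.152 with no scaling factors and -0.056 with a trend on length and GC removed, and genes with a higher level made up 54.7% of calls against 61.5 and 45.3%. Of 4655 values for named genes under 20 settings, 4618 kept direction and call. Odc1 changed sign with no scaling (0.028) and without control replicate 4 (-0.111 to 0.003 over libraries left out), and had an adjusted p of 0.00517 with length and GC removed. Dio3, nearly undetected, changed sign with lane as a covariate (-0.938) and without CHX replicate 4 (-0.937 to 0.561 over libraries left out). Cyld, near 0, was at -0.013 with DESeq2 and RLE, -0.035 with upper quartile, -0.024 with the 8 libraries alone (block or not), -0.010 with those of 6 h, -0.179 with length and GC removed and -0.007 to 0.070 over libraries left out, and Cxcl3 at -0.167 to 0.620 over those. Of 960 list medians, 230 moved by more than the replicate SD. In 7 lists the median changed sign: ubiquitin genes with no scaling (0.012), aminoacyl-tRNA synthetases with length and GC removed (-0.073), and actin genes with lane (0.023) and without CHX replicate 4 (-0.290 to 0.024 over libraries left out). Those near 0 were the Wnt list (0.018 with no scaling, 0.004 with no filter, 0.034 without control replicate 2), reactive astrocyte genes (0.003 with no scaling, 0.016 without control replicate 4) and neuron markers (0.018 with no scaling and without CHX replicate 1, 0.076 without CHX replicate 3). Vascular markers were at 0.104 without control replicate 3 and -0.635 without CHX replicate 3. Depth limits genes under 1 CPM, where a control library holds few reads.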
